A study of Mus musculus with 8 samples.

Results

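Chemokine receptors decide which leukocytes can follow which chemokine signals into the liver. The 9 genes described here, Ccr1, Ccr2, Ccr7, Ccr9, Cx3cr1, Cxcr2, Cxcr3, Cxcr4 and Cxcr6, were taken by symbol from the 55450 genes of the count matrix, and each was measured as unique molecular identifiers (UMIs, 1 per captured mRNA molecule) given as CPM, the gene's UMIs over all UMIs of the summed cells, scaled to a common total, in every mouse and cell type. All mice carried the WT genotype (C57BL/6). The 2 control mice had a normal diet and drinking water, the 3 HFD+F+CCl4 mice a high-fat diet with fructose solution and intraperitoneal carbon tetrachloride, and the 3 WD+F+CCl4 mice a western diet with the same fructose and carbon tetrachloride. The diets, the fructose and the toxin were thus given together, and the matrix has no group with 1 of them alone. Whole livers were dissociated with collagenase and papain and loaded without sorting, so the cells of 1 library came from 1 mouse and the mouse was the replicate in every test.

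Most chemokine receptors are G protein-coupled receptors with several membrane-spanning helices that signal through inhibitory G proteins and steer cells up a gradient of their ligand. Ccr2 lets classical monocytes leave the bone marrow and enter injured liver, Cx3cr1 marks monocytes that patrol the vessel wall and many tissue macrophages, and Cxcr2 draws neutrophils toward CXC ligands. Ccr7 guides dendritic cells and lymphocytes into lymph nodes, Ccr9 binds a ligand of gut and thymus, Cxcr3 and Cxcr6 mark effector and tissue-resident T cells and NK cells, and Cxcr4 holds cells at sources of Cxcl12.

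Of the 88581 barcodes, 80474 had more than 500 genes and under 25% mitochondrial UMIs and were kept. The libraries held between 6135827 UMIs (control replicate 2) and 64855024 UMIs, and the median kept cell had 992.5 UMIs in control replicate 2, 2397 in control replicate 1 and between 3159 and 4278 in the NASH mice. Pairs of libraries shared between 8 and 46 barcodes. Clusters of cells were given 24 names from fixed marker lists, from which every chemokine receptor had been left out, as they also had been from the genes used for clustering. Clusters without a name held 27.5% and 66.6% of the control cells and from 2.2% to 6.91% of the cells of a NASH mouse, so that the named control cells were a smaller part of their libraries. HFD+F+CCl4 replicate 1 stood apart in stress genes, with Hspa1a, a heat shock chaperone, at 397 CPM against 15 to 104 CPM in the other 7 mice.

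In GRCm38, 5 of the 9 genes lay on chromosome 9. Ccr9 (chr9:123678439-123784330), Cxcr6 (chr9:123806475-123811760), Ccr1 (chr9:123962124-123968692) and Ccr2 (chr9:124101950-124113557) lay in one stretch, and Cx3cr1 (chr9:119901616-120069879) lay apart from them. Cxcr2 (chr1:74153989-74161246) and Cxcr4 (chr1:128588199-128592293) were on chromosome 1, Ccr7 (chr11:99144196-99155077) on chromosome 11 and Cxcr3 (chrX:101731535-101734269) on chromosome X. Members of this stretch were highest in different cell types, as the levels below show. The RefSeq table of promoters held 8 of the 9 genes, all but Ccr7. The 250 bases before the RefSeq start site are printed, on build GRCm38.p6, for the 4 genes that lead the main patterns, Cxcr2 of neutrophils, Cx3cr1 of patrolling monocytes, Cxcr6 of T cells and Cxcr4, which spreads over many cell types. Capitals mark exact matches on either strand to TATAAA (the TATA box), GGGCGG (the GC box), GAGGAA (the core of PU.1 sites) and TGTGGT (the core of RUNX sites), and none of these 4 words is contained in another.
Cxcr2, chr1:74153744-74153993, plus strand: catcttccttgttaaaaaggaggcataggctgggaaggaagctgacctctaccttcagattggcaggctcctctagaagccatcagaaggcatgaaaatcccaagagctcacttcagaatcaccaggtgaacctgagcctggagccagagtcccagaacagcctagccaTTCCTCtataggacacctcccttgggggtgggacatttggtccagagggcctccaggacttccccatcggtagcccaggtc
Cx3cr1, chr9:120068297-120068546, minus strand: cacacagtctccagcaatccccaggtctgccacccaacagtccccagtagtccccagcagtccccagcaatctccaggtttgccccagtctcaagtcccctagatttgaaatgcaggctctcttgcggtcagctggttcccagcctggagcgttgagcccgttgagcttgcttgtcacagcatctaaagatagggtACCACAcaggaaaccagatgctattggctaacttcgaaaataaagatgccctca
Cxcr6, chr9:123806227-123806476, plus strand: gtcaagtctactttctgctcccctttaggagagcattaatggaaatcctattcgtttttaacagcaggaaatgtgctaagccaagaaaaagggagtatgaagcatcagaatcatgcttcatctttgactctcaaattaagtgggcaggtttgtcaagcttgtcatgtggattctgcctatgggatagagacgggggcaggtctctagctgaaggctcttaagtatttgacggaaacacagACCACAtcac
Cxcr4, chr1:128592300-128592549, minus strand: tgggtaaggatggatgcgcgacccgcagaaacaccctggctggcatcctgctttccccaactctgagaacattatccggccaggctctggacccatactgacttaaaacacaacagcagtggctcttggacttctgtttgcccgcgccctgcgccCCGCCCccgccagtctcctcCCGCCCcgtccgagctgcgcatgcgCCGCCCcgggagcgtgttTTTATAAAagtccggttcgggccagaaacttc

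The Cxcr4 stretch held 3 GC boxes and 2 overlapping TATA boxes, and it was the only 1 of the 8 with either word. Of all 32851 RefSeq promoters of this length, 32.7% held a GC box and 12.4% a TATA box. GAGGAA was found before Ccr1, Cxcr2 and Cxcr3, and in 23.3% of all promoters. TGTGGT was found before Ccr1, Cx3cr1, Cxcr3 and Cxcr6, and in 14.0% of all promoters. A match of letters is a description of the window and shows no binding.

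**Figure D1:**
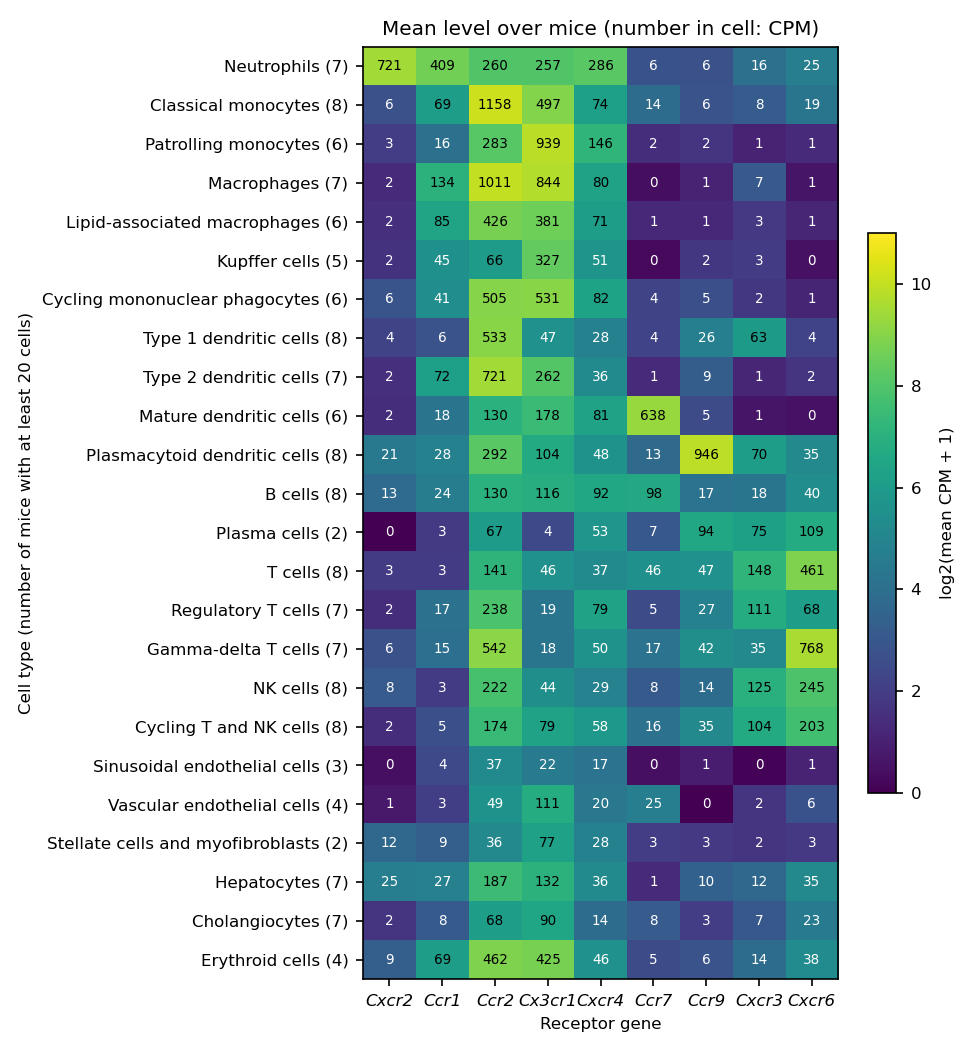
Mean level of the 9 receptor genes (columns) in the 24 named cell types (rows), as the mean CPM over mice with at least 20 cells of the type (number of mice in parentheses); colour is log2(mean CPM + 1), the printed number is the mean CPM, and levels are to be compared down a column. Cxcr2 stands at 721 CPM in neutrophils and at most 25 CPM elsewhere, while Ccr2 lies between 504 and 1158 CPM in 6 types.

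The receptors fell into 4 groups by the type in which each was highest. Ccr1, Cxcr2 and Cxcr4 were highest in neutrophils, Ccr2 and Cx3cr1 in monocytes, Ccr7 and Ccr9 in dendritic cells, and Cxcr3 and Cxcr6 in T cells. The order is a description, since the cell types come from clusters of the same cells, and no type was tested against the rest. The highest type of all 9 genes was the same under stricter cell filters, other clustering and naming, removal of the cells with the highest doublet scores, thinning to 1000 UMIs and leaving out each mouse in turn.

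Cxcr2, the neutrophil receptor for Cxcl1 and related ligands, was read at 1147 CPM in the neutrophils of control replicate 1, at 606, 648 and 446 CPM in the 3 HFD+F+CCl4 mice and at 741, 748 and 709 CPM in the 3 WD+F+CCl4 mice. The control value was the highest of the 7, and it rested on 461 UMIs. The mean was 721 ± 215 CPM (SD, n = 7), and the next type, hepatocytes, had 25 CPM, so that the ranges of mice in these types did not overlap. Neutrophils carried 88.7% of all Cxcr2 UMIs in NASH mice (81.5% to 92.1%). Control replicate 2 had too few neutrophils for a value, and no comparison with control was made in this type.

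Ccr1, a receptor for Ccl3, Ccl5 and Ccl6, was at 409 ± 100 CPM (SD, n = 7) in neutrophils, between 273 and 527 CPM in the single mice. Macrophages followed at 134 CPM (66.3 to 170), lipid-associated macrophages at 84.5 CPM (45.9 to 131), type 2 dendritic cells at 72.0 CPM and classical monocytes at 69.5 CPM. Neutrophils did not overlap macrophages, while each of the later types overlapped the next.

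Cxcr4, the Cxcl12 receptor, was spread over many types. Its mean was 286 ± 132 CPM (SD, n = 7) in neutrophils, 146 CPM in patrolling monocytes and 91.5 CPM in B cells, and at most 81.5 CPM in each of the other types. Each of these 3 types overlapped the next. In patrolling monocytes HFD+F+CCl4 replicate 1 had 306 CPM and the other 5 mice had 78.0 to 135 CPM. The same mouse was the highest in B cells, with 168 CPM against 58.4 to 153 CPM in the other control and HFD+F+CCl4 mice and 45.6 to 68.0 CPM in the WD+F+CCl4 mice. It was also the mouse with the highest stress genes, and the part of these in the Cxcr4 level was not tested.

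Ccr2, the receptor for Ccl2, Ccl7 and Ccl12, reached 1158 ± 206 CPM (SD, n = 8) in classical monocytes. The control mice had 1380 and 988 CPM, the HFD+F+CCl4 mice 891, 1206 and 951 CPM, and the WD+F+CCl4 mice 1120, 1455 and 1272 CPM. The 3 groups overlapped. Ccr2 was almost as high in macrophages (1011 CPM, 646 to 1316) and remained high in type 2 dendritic cells (721 CPM), gamma-delta T cells (542 CPM) and type 1 dendritic cells (533 CPM). It was at 65.8 CPM in Kupffer cells, the resident macrophages of the sinusoids, with 51.8 to 76.9 CPM in the 5 mice that had enough of them.

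Cx3cr1, the receptor for the membrane-bound chemokine Cx3cl1, was at 939 ± 139 CPM (SD, n = 6) in patrolling monocytes. Its values there were 772, 991 and 982 CPM in the HFD+F+CCl4 mice and 803, 1153 and 936 CPM in the WD+F+CCl4 mice. Macrophages had 844 CPM, cycling mononuclear phagocytes 531 CPM, classical monocytes 497 CPM and Kupffer cells 327 CPM. Patrolling monocytes and macrophages overlapped, and the control mice had too few patrolling monocytes for a value.

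The share of cells with both Ccr2 and Cx3cr1 overlapped between several myeloid types. At least 1 UMI of both genes was found in 54.6% to 82.9% of the classical monocytes of each NASH mouse and in 52.3% to 82.7% of its macrophages. In lipid-associated macrophages the share was 28.7% to 58.2% and in type 2 dendritic cells 32.5% to 59.5% over all mice with a value. In patrolling monocytes 16.1% to 34.0% of the cells had both and 52.0% to 69.1% had Cx3cr1 without Ccr2. Kupffer cells had Cx3cr1 alone in 24.3% to 42.3% of cells and neither gene in 23.1% to 57.4%. These shares depend on depth, and among the classical monocytes of control replicate 2, the shallowest library, 18.2% had both against 71.4% in control replicate 1.

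**Figure D2:**
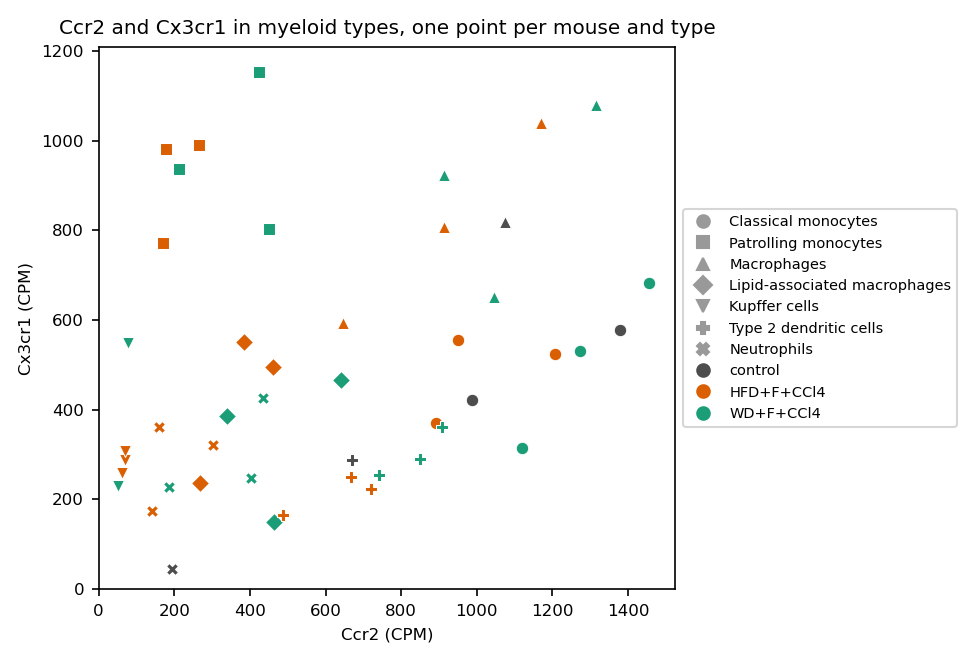
Ccr2 (x axis, CPM) against Cx3cr1 (y axis, CPM) in 7 myeloid types; each point is 1 mouse in 1 type, the shape gives the type and the colour the group. Patrolling monocytes lie at the upper left (Ccr2 171 to 450 CPM), macrophages at the upper right, classical monocytes at the right, and Kupffer cells at the lower left.

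Ccr7, the receptor for Ccl19 and Ccl21a, was read at 865, 614 and 460 CPM in the mature dendritic cells of the HFD+F+CCl4 mice and at 651, 251 and 986 CPM in those of the WD+F+CCl4 mice. The spread was wide, with a mean of 638 ± 266 CPM (SD, n = 6), but no mouse overlapped B cells, the next type at 97.6 CPM (58.4 to 177). T cells followed at 45.6 CPM. Mature dendritic cells were at most 2.94% of the cells of a NASH mouse and yet held 47.6% of its Ccr7 UMIs on average (19.2% to 76.8%).

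Ccr9, the receptor for Ccl25, was at 946 ± 167 CPM (SD, n = 8) in plasmacytoid dendritic cells. The control mice had 965 and 1108 CPM, the HFD+F+CCl4 mice 869, 954 and 854 CPM, and the WD+F+CCl4 mice 917, 673 and 1227 CPM. No mouse overlapped the next type, plasma cells, of which only the control mice had at least 20 and in which Ccr9 was at 77.9 and 111 CPM. T cells followed at 47.0 CPM and gamma-delta T cells at 42.1 CPM.

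Cxcr6, the receptor for Cxcl16, was at 768 ± 76.1 CPM (SD, n = 7) in gamma-delta T cells, from 662 to 871 CPM. T cells had 461 ± 222 CPM (SD, n = 8), NK cells 245 CPM and cycling T and NK cells 203 CPM, each overlapping its neighbour. Cxcr3, the receptor for Cxcl9, Cxcl10 and Cxcl11, was at 148 ± 35.9 CPM (SD, n = 8) in T cells, 125 CPM in NK cells, 111 CPM in regulatory T cells and 104 CPM in cycling T and NK cells, again with overlapping neighbours. Type 1 and plasmacytoid dendritic cells also carried Cxcr3, at 63.4 and 69.9 CPM, and in NASH mice they had at most 1.34 and 5.00 CPM of Cxcr6.

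After each cell was thinned to 1000 UMIs, which left out 2694 control cells, 1552 cells of HFD+F+CCl4 mice and 1176 cells of WD+F+CCl4 mice with fewer, the share of cells with at least 1 UMI was 59.2% for Ccr2 in classical monocytes, 58.6% for Cx3cr1 in patrolling monocytes, 56.3% for Ccr9 in plasmacytoid dendritic cells, 54.1% for Cxcr2 in neutrophils, 50.2% for Cxcr6 in gamma-delta T cells, 38.5% for Ccr1 in neutrophils, 31.5% for Ccr7 in mature dendritic cells, 25.6% for Cxcr4 in neutrophils and 14.4% for Cxcr3 in T cells. Without thinning these shares were 85.3%, 84.5%, 83.4%, 70.5%, 74.7%, 55.9%, 54.4%, 40.9% and 27.6%, in the same order. Cholangiocytes, which should lack the receptors of leukocytes, gave thinned shares of 0.231% for Cxcr2 up to 5.32% for Cx3cr1, with median depths from 880 to 12606.5 UMIs per cell. The highest types had median depths from 935 to 6458 UMIs. Erythroid cells, which should lack them too, gave 31.8% for Cx3cr1 and 25.7% for Ccr2, and their macrophage markers summed to between 7686 and 18539 CPM. The part of free RNA or of joined cells in the erythroid values was not tested.

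Across the 24 types, the genes whose mean log2(CPM + 1) followed a receptor most closely were counted by Pearson's r, as a description over types that share libraries and depth. Cx3cr1 was followed by Csf1r, the receptor of the macrophage growth factor, and by the lectins Clec4a1 and Clec4a3 (r = 0.96 each). Cxcr6 was followed among others by Thy1, a surface protein of T cells, and by the signalling gene Skap1 (0.97 each). Cxcr2 went with S100a9, S100a8 and Retnlg (0.94 to 0.96), which were themselves markers of the neutrophil name. Ccr1 went with Cd33 (0.93), Clec5a and Arl11, Ccr9 with Pacsin1 (0.88, a marker of the plasmacytoid name), Rpgrip1 and Rhobtb2, and Cxcr3 with Cd226 (0.89), Ptprcap and Ctsw. The closest genes were looser for Cxcr4 (Zfp36, 0.83, Snx20 and Gm45191), Ccr2 (Tnfaip8l2, 0.82, Susd3 and Sla) and Ccr7 (Slco5a1, 0.73, Tmem123 and Gm42602).

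With all kept cells of a mouse summed, Ccr1 and Cx3cr1 were higher and Ccr7, Cxcr3 and Cxcr6 lower in both NASH models, Ccr9 was lower in HFD+F+CCl4 and Ccr2 higher in WD+F+CCl4. In HFD+F+CCl4 against control, edgeR's quasi-likelihood test with Benjamini-Hochberg adjustment called 6 of the 9 genes, 2 higher and 4 lower, where 18.9% of all 19787 genes tested were called (9.63% higher and 9.22% lower). In WD+F+CCl4 against control it called 6 of 9, 3 higher and 3 lower, where 21.4% of all genes were called (11% higher and 10.3% lower). Both comparisons use the same 2 control mice. In a whole library, fewer cells of a type and less RNA per cell cannot be told apart. The control libraries held 4 and 0 Kupffer cells, 10 and 1 sinusoidal endothelial cells and 46 and 18 hepatocytes. The values given below for livers are thus those of the captured cells, and recovery of cells and group cannot be told apart in them.

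Cx3cr1 was at 65.1 and 64.5 CPM in the control livers, at 384, 499 and 518 CPM in the HFD+F+CCl4 livers and at 292, 654 and 463 CPM in the WD+F+CCl4 livers. Every NASH mouse lay above both controls, with log2 differences of 2.98 ± 0.40 (SE) in HFD+F+CCl4 (adjusted p = 0.00365) and 3.04 ± 0.40 in WD+F+CCl4 (adjusted p = 0.00283). Patrolling monocytes held 29.3% of the Cx3cr1 UMIs of a NASH mouse on average and macrophages 25.5%, while in controls classical monocytes held 49.7%. Patrolling monocytes themselves were at most 0.065% of control cells and 13% to 32.6% of the cells of a NASH mouse, and macrophages 0.072% to 0.185% and 2.65% to 24.3%.

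Ccr1 was at 13.9 and 12.6 CPM in control, at 48.1, 61.9 and 53.9 CPM in HFD+F+CCl4 and at 124, 92.2 and 68.7 CPM in WD+F+CCl4 livers. The 3 groups did not overlap, and the differences from control were 2.15 ± 0.32 (adjusted p = 0.00524) and 3.02 ± 0.33 (adjusted p = 0.00165) on the log2 scale. Ccr2 was less changed, with 301 and 299 CPM in control, 347, 541 and 401 CPM in HFD+F+CCl4 and 636, 794 and 420 CPM in WD+F+CCl4 livers. It was called in WD+F+CCl4 (1.24 ± 0.35, adjusted p = 0.0442) and not in HFD+F+CCl4 (0.64 ± 0.35, adjusted p = 0.236), and the call was lost when any 1 of WD+F+CCl4 replicates 1 and 2, HFD+F+CCl4 replicates 2 and 3 or the control mice was left out (log2 1.00 to 1.40, adjusted p from 0.0546 to 0.181), and when only the 2 groups compared were fitted (1.23, adjusted p = 0.0546).

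Cxcr6 and Cxcr3 were lower in every NASH liver than in both controls. Cxcr6 was at 384 and 301 CPM in control, at 11.2, 38.5 and 50.7 CPM in HFD+F+CCl4 and at 16.4, 24.0 and 26.9 CPM in WD+F+CCl4 livers. The log2 differences were -3.20 ± 0.61 (adjusted p = 0.0118) and -3.77 ± 0.62 (adjusted p = 0.00618), and without control replicate 1 the first was -2.85 (adjusted p = 0.0621). Cxcr3 was at 105 and 114 CPM in control and at 8.01 to 17.3 CPM in the 6 NASH livers, with log2 differences of -2.88 ± 0.33 and -2.74 ± 0.33 (adjusted p = 0.00235 and 0.00221). In control, cells of the clusters without a name held 49.6% of the Cxcr6 and 46.5% of the Cxcr3 UMIs on average.

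Ccr7 was at 71.4 and 74.4 CPM in control and at 9.80, 9.42 and 25.5 CPM in HFD+F+CCl4 and 10.8, 7.69 and 5.96 CPM in WD+F+CCl4 livers. It fell in WD+F+CCl4 (log2 -2.96 ± 0.52, adjusted p = 0.00786) and in HFD+F+CCl4 (-2.13 ± 0.51, adjusted p = 0.0264), and the second call was lost without HFD+F+CCl4 replicate 1 or 2 or either control mouse (log2 -2.16 to -1.79, adjusted p from 0.0617 to 0.11), and when only the 2 groups compared were fitted (-2.10, adjusted p = 0.0525). Ccr9 was at 119 and 201 CPM in control, at 2.67, 23.2 and 19.0 CPM in HFD+F+CCl4 and at 39.0, 18.5 and 36.4 CPM in WD+F+CCl4 livers. It was called in HFD+F+CCl4 (-3.21 ± 0.80, adjusted p = 0.0297), a call lost without HFD+F+CCl4 replicate 2 or 3 or either control mouse (log2 -3.65 to -2.88, adjusted p from 0.055 to 0.121) and when only the 2 groups compared were fitted (-3.19, adjusted p = 0.0617). In WD+F+CCl4 it was not called (-2.13 ± 0.78, adjusted p = 0.0903), though it was by DESeq2 (-2.06, adjusted p = 0.0238), when only the 2 groups compared were fitted (-2.14, adjusted p = 0.0142) and without HFD+F+CCl4 replicate 1 in the fit (-2.07, adjusted p = 0.00688).

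Cxcr2 and Cxcr4 were not called in either comparison. Cxcr2 had 19.7 and 29.8 CPM in control and 16.3 to 112 CPM in NASH livers, the highest in WD+F+CCl4 replicate 1, whose neutrophils were 19.3% of its cells. Its log2 differences were 0.30 ± 0.72 and 1.46 ± 0.75, and the second was called without WD+F+CCl4 replicate 3 (1.98, adjusted p = 0.0412). Cxcr4 had 54.6 and 85.8 CPM in control and 47.8 to 147 CPM in NASH livers, with log2 differences of 0.65 ± 0.39 and 0.20 ± 0.38. Between the 2 models, 0 of the 9 genes and 0 of the 19787 genes tested were called by edgeR, and DESeq2 also called 0 of the 9. At an unadjusted p under 0.05 there were 767 genes, of which Ccr1, higher in WD+F+CCl4 by 0.87 ± 0.26, was the 1 receptor.

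**Figure D3:**
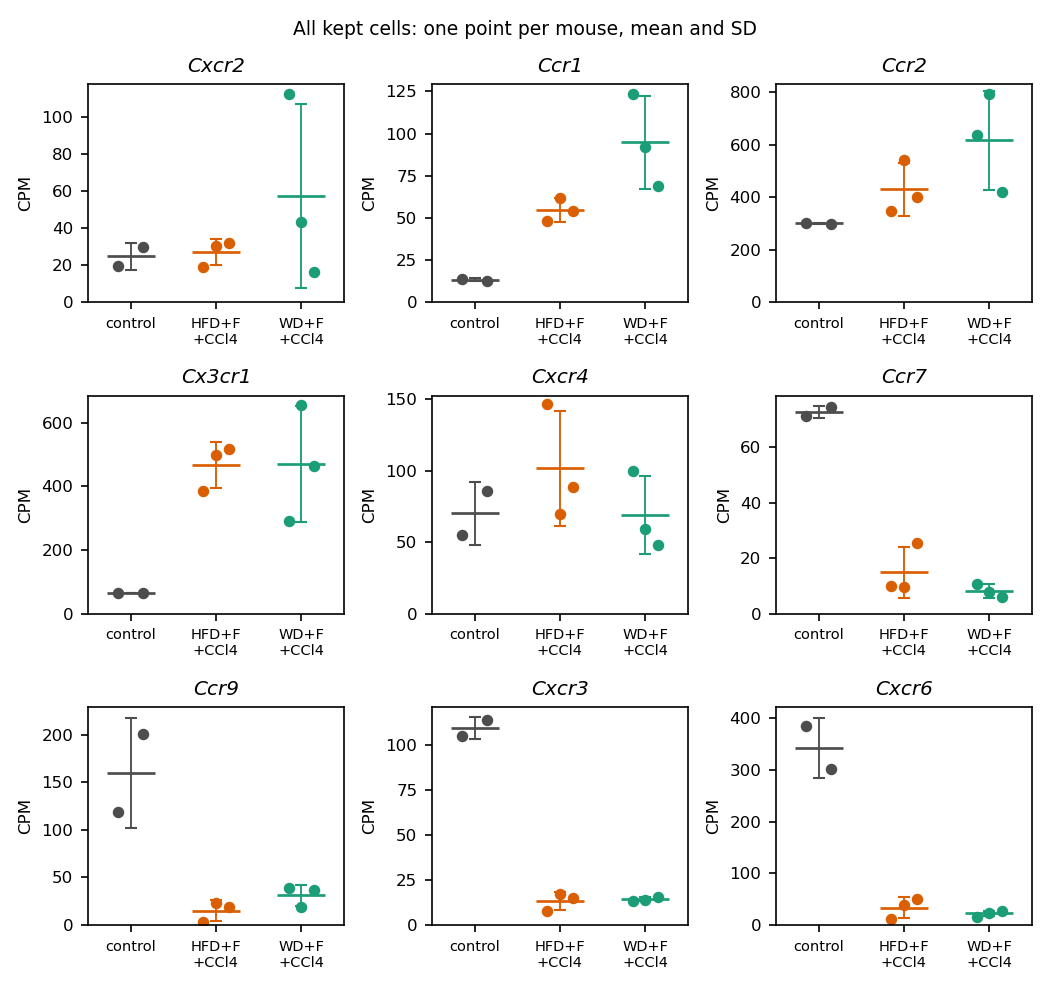
Level of each receptor gene in all kept cells of a mouse (y axis, CPM, from 0), 1 point per mouse with the mean (bar) and SD (whiskers) of each group, for the control group and both NASH models. Cx3cr1 and Ccr1 lie higher in every NASH mouse than in both controls, and Ccr7, Ccr9, Cxcr3 and Cxcr6 lie lower in every NASH mouse.

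The other genes of the pathway were counted in the same fits, as 3 lists. Of all genes tested, 9.63% were called higher and 9.22% lower in HFD+F+CCl4, and 11% and 10.3% in WD+F+CCl4. These shares stand beside the counts of each list. Of 15 other chemokine receptors, 3 were higher and 2 lower in HFD+F+CCl4, and 2 higher and 3 lower in WD+F+CCl4. Cmklr1, the receptor of the attractant chemerin, was higher by 3.79 and 3.91 on the log2 scale, Cxcr5, which guides B cells into follicles, had differences of -3.93 and -2.24, and Ccr10 of -1.72 and -2.99. Ccrl2 was higher in HFD+F+CCl4 (2.08) and Cxcr1, a relative of Cxcr2, in WD+F+CCl4 (4.21). Their adjusted p ran from 0.000451 to 0.0341 by edgeR.

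Of 22 ligands of the receptors, 10 rose and 1 fell in HFD+F+CCl4, and 9 rose and 1 fell in WD+F+CCl4. Their median log2 difference was 2.86 and 2.47, beside -0.01 and -0.06 over all genes tested. The Ccr2 ligands Ccl12 (6.91 and 8.40) and Ccl2 (3.59 and 5.37) were among the 4 with the smallest p in both comparisons, together with Ccl6 (2.12 and 2.53) and Ccl9 (2.60 and 2.62), which bind Ccr1, with an adjusted p of at most 0.00406. Of 20 signalling and desensitization genes, 5 rose and 2 fell in HFD+F+CCl4 and 7 rose in WD+F+CCl4, with a median of 0.37 and 0.33. Rgs2, which shortens G protein signals, was higher by 1.94 and 2.04, Grk3, a kinase that switches receptors off, by 2.76 and 2.38, Rgs10 by 1.19 and 1.12, and Arrb2, a beta-arrestin, by 0.77 and 0.85, with an adjusted p of at most 0.0163. Between the models 0 genes of these 3 lists were called. The smallest p there belonged to Xcr1, Cxcr5, Ccr10 and Ccrl2 of the receptors, to Ccl2, Ccl12, Ccl19 and Cxcl3 of the ligands and to Grk6, Rgs18, Rac2 and Rgs1 of the signalling genes, with an adjusted p of 1.00 each.

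Within cell types, Ccr2 in classical monocytes, Ccr9 in plasmacytoid dendritic cells and Cxcr3 in T cells were the receptors whose highest type could be tested against control, and none of the 3 was called there. Both control mice had at least 20 cells in 8 types, and 57 of the 72 pairs of a receptor and 1 of these types passed the filter on low counts. Of these 57, edgeR called 14 in HFD+F+CCl4 against control and 20 in WD+F+CCl4 against control. A pair could pass the filter only through a group in which its gene was high. Cxcr6 in plasmacytoid dendritic cells and cholangiocytes and Ccr9 in cycling T and NK cells passed it through the control mice alone. The share of all genes called is given for each type beside its count.

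**Figure D4:**
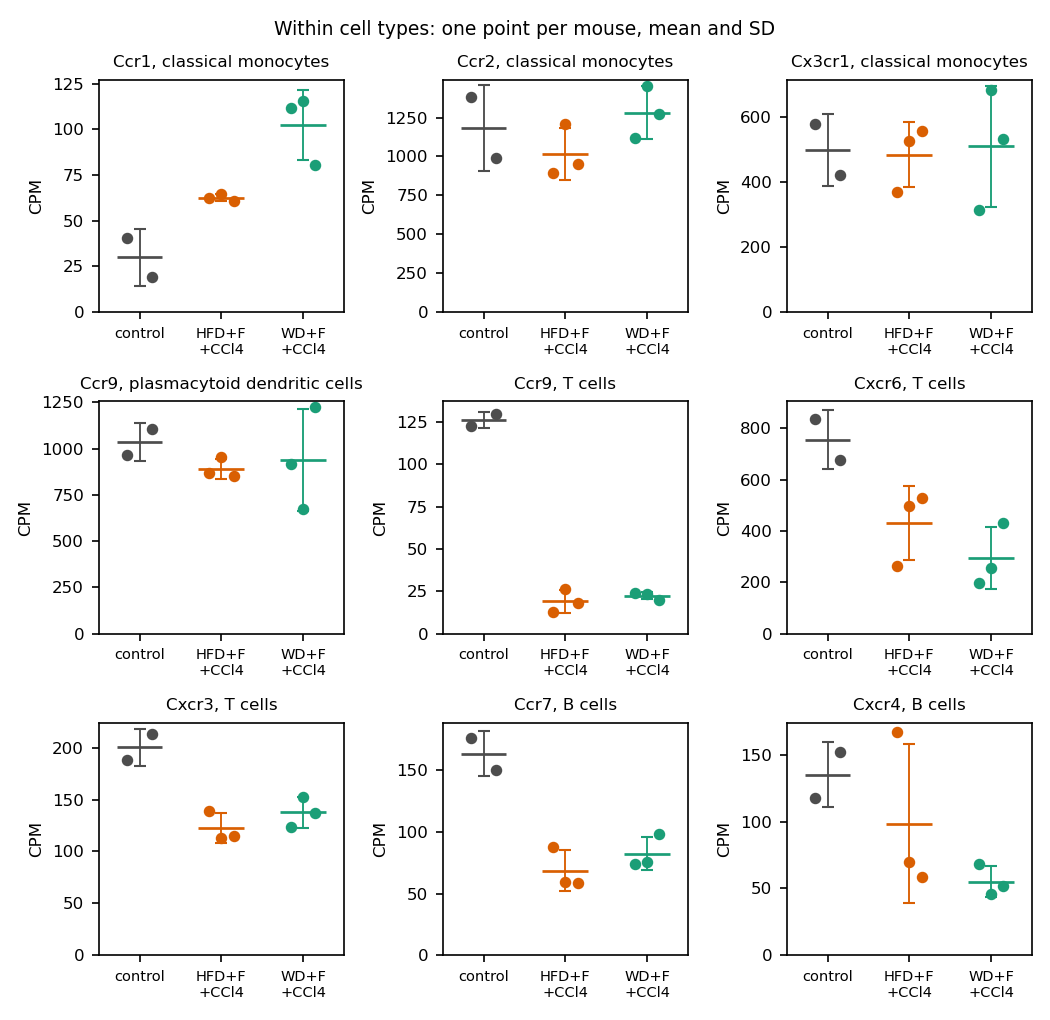
Level (y axis, CPM, from 0) of 9 pairs of a receptor and a cell type in the control group and both NASH models; points are mice, horizontal bars the mean and whiskers the SD. Ccr2 and Cx3cr1 in classical monocytes and Ccr9 in plasmacytoid dendritic cells overlap between the groups, while Ccr1 in classical monocytes and Ccr9 in T cells do not overlap between control and NASH mice.

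In classical monocytes Ccr2 and Cx3cr1 overlapped between all groups. For Ccr2 the log2 difference from control was -0.22 ± 0.25 in HFD+F+CCl4 (adjusted p = 0.666) and 0.14 ± 0.25 in WD+F+CCl4 (adjusted p = 0.768). Cx3cr1, at 577 and 421 CPM in control, 370, 525 and 555 CPM in HFD+F+CCl4 and 314, 682 and 531 CPM in WD+F+CCl4, differed by -0.05 ± 0.34 and 0.04 ± 0.34. Ccr1 was the receptor that rose, from 40.8 and 19.0 CPM in control to 112, 115 and 80.7 CPM in WD+F+CCl4 (1.57 ± 0.29, adjusted p = 0.00837), a call that held with each mouse left out. In HFD+F+CCl4 it was at 62.2, 64.9 and 61.0 CPM, above both controls, and was not called (0.83 ± 0.29, adjusted p = 0.152). Of the 9 receptors, 4 were called in WD+F+CCl4, where 10.5% of 11334 genes were called, and 0 in HFD+F+CCl4, where 2.66% were. At an unadjusted p under 0.05 there were 3 in HFD+F+CCl4, beside 2311 of all 11334 genes, and DESeq2 called 1.

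Most control and most NASH classical monocytes lay in different clusters. Cluster P16 held 770 control cells, 140 of HFD+F+CCl4 mice and 211 of WD+F+CCl4 mice, cluster P6 held 7, 809 and 2218, and cluster P7 held 3, 237 and 2466. Ccr2 averaged 646 CPM over mice in P16 (264 to 1371 CPM), 1157 CPM in P6 and 1469 CPM in P7. Cx3cr1 averaged 360, 495 and 554 CPM in these clusters. The overlap of the groups in both receptors is thus one of sums over clusters that control and NASH mice filled differently. Within P16, Ccr1 was at 39.8 and 19.3 CPM in the control mice, 38.9, 54.6 and 37.4 CPM in the HFD+F+CCl4 mice and 69.6, 71.9 and 75.5 CPM in the WD+F+CCl4 mice. The WD+F+CCl4 mice were thus above both controls in this cluster too, and the HFD+F+CCl4 mice overlapped them. The macrophage markers of classical monocytes summed to 895 and 1390 CPM in control and to 3570 to 14102 CPM in NASH mice, and their part in the Ccr1 difference was not tested. The other 3 called receptors were lower in WD+F+CCl4 and rested on few UMIs. Ccr7 was at 16.0 and 54.3 CPM in control and 0.754 to 2.35 CPM in WD+F+CCl4 mice, Ccr9 at 4.58 and 32.6 CPM and 1.17 to 2.45 CPM, and Cxcr6 at 16.5 and 73.3 CPM and 1.61 to 8.48 CPM. Control replicate 2 was the higher control for each, and without it the Ccr7 call was lost (-3.44, adjusted p = 0.0681). The Ccr9 call was lost without any 1 of the WD+F+CCl4 mice, HFD+F+CCl4 replicates 1 and 2 and control replicate 2 (log2 -3.11 to -1.36, adjusted p from 0.0533 to 0.346), and the Cxcr6 call without any 1 of WD+F+CCl4 replicates 1 and 2, the HFD+F+CCl4 mice and both controls (log2 -3.48 to -1.56, adjusted p from 0.0519 to 0.267). Both were also lost when only the 2 groups compared were fitted and with more than 1000 genes per cell, Ccr9 also with each cell named by its own scores and Cxcr6 with library size only. Within P16, Ccr7 was at 16.2 and 55.0 CPM in control and 43.0, 22.7 and 5.39 CPM in WD+F+CCl4 mice. Ccr9 was there at 4.63 and 33.0 CPM and at 14.3, 6.30 and 8.98 CPM. The groups overlapped for both genes, so their lower levels were not seen within this cluster. In P6 and P7, Ccr7 averaged 0.239 and 0.462 CPM over mice and Ccr9 1.28 and 1.14 CPM. Cxcr6 averaged 64.9 CPM in P16, from 16.7 to 101 CPM in the single mice, and 1.19 and 0.0701 CPM in P6 and P7. In P16 no mouse was thus below the control values of the whole type (16.5 and 73.3 CPM). The lower Cxcr6 was therefore not seen within this cluster either.

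In plasmacytoid dendritic cells, all in cluster P9, Ccr9 overlapped between all groups. The log2 difference was -0.28 ± 0.22 in HFD+F+CCl4 (adjusted p = 0.634) and -0.10 ± 0.21 in WD+F+CCl4 (adjusted p = 0.871), although Ccr9 in whole livers was lower in every NASH mouse. The type itself was 3.49% and 6.38% of control cells and 0.188% to 3.44% of the cells of a NASH mouse, and it held 44.4% of the Ccr9 UMIs of control and 72.5% of those of NASH livers on average. Cxcr3 and Ccr2 in this type were not called either. The calls were 2 of 9 in HFD+F+CCl4, where 3.52% of 9533 genes were called, and 4 of 9 in WD+F+CCl4, where 7.83% were.

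Cx3cr1 in plasmacytoid dendritic cells was at 21.0 and 40.6 CPM in control, 29.4, 92.4 and 131 CPM in HFD+F+CCl4 and 118, 315 and 83.8 CPM in WD+F+CCl4. It was called in WD+F+CCl4 (2.71 ± 0.57, adjusted p = 0.00743) and not in HFD+F+CCl4 (1.90 ± 0.60, adjusted p = 0.116). The call was lost without control replicate 1 (2.17, adjusted p = 0.17) and after the cells with the highest doublet scores were removed (0.41, adjusted p = 0.837). Macrophage markers in this type summed to 378 and 432 CPM in control and to 1697 to 5521 CPM in NASH mice, with all 7 genes of the list detected in both, and their part in the result was not tested.

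T cells carried Ccr9 at 123 and 130 CPM in control, at 12.5, 26.1 and 18.3 CPM in HFD+F+CCl4 and at 23.8, 23.2 and 19.8 CPM in WD+F+CCl4 mice. Control and NASH mice did not overlap, and the log2 differences were -2.57 ± 0.28 (adjusted p = 0.00392) and -2.26 ± 0.27 (adjusted p = 0.00359). Only 14 UMIs stood behind the value of control replicate 2, and without control replicate 1 the calls were lost (-2.40 and -2.08, adjusted p = 0.344 and 0.235). In T cells 3 of the 8 receptors tested were called in HFD+F+CCl4, where 1.85% of 11193 genes were called, and 2 in WD+F+CCl4, where 2.37% were. Cycling T and NK cells, in which 1 receptor of 7 was called in each comparison (1.64% and 1.78% of 8494 genes), also had less Ccr9, with 60.8 and 188 CPM in control and 0 to 12.6 CPM in NASH mice (log2 -4.64 ± 0.61, adjusted p = 0.00207, and -3.57 ± 0.58, adjusted p = 0.0051, the latter lost without control replicate 1, -4.37, adjusted p = 0.0817).

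Cxcr6 and Cxcr3, the main receptors of these T cells, were not called. Cxcr6 was at 837 and 676 CPM in control, 264, 498 and 529 CPM in HFD+F+CCl4 and 198, 257 and 430 CPM in WD+F+CCl4 mice, without overlap between control and NASH (-0.73 ± 0.35, adjusted p = 0.36, and -1.13 ± 0.35, adjusted p = 0.122). Cxcr3 was at 188 and 213 CPM in control and at 113 to 153 CPM in NASH mice (-0.62 ± 0.20, adjusted p = 0.15, and -0.26 ± 0.20, adjusted p = 0.525). Ccr2 in T cells was at 239 and 269 CPM in control and 73.5 to 133 CPM in NASH mice (-1.07 ± 0.27, adjusted p = 0.0771, and -1.14 ± 0.27, adjusted p = 0.0522). Ccr7 was at 68.7 and 92.7 CPM in control, 19.4, 16.1 and 18.7 CPM in HFD+F+CCl4 and 73.5, 50.4 and 25.5 CPM in WD+F+CCl4 mice. It was called in HFD+F+CCl4 (-1.99 ± 0.42, adjusted p = 0.0395) and not in WD+F+CCl4 (-0.34 ± 0.40, adjusted p = 0.718), and the call was lost without any 1 of 5 mice, HFD+F+CCl4 replicates 2 and 3, WD+F+CCl4 replicate 2 and both controls (-2.08 to -1.92, adjusted p from 0.0615 to 0.492), and with more than 1000 genes per cell (-1.77, adjusted p = 0.103).

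Control and NASH T cells lay in different clusters, so that cluster and group cannot be told apart in these differences. Most control T cells were in clusters T0, T5, T15 and T20, and most NASH T cells in T1, T2, T7, T9, T10, T16 and T18. Ccr9 was at 127 CPM in T0, 126 CPM in T15, 110 CPM in T20 and 82.1 CPM in T5, and between 7.00 and 63.2 CPM in the 7 NASH clusters, highest in T7. Cxcr6 was at 73.2 CPM in T5 and at 715 to 965 CPM in the other 3 control clusters, and at 159 to 671 CPM in the NASH clusters. Ccr7 was high where Cxcr6 was low, at 287 CPM in T5 and 163 CPM in T9 and at most 38.2 CPM in the other clusters. Values of T5, T15 and T20 rest on 1 mouse each.

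NK cells had 0 called receptors of 5 tested in either comparison with control, where 3.34% and 6.6% of 5472 genes were called, and DESeq2 called 0 as well. At an unadjusted p under 0.05 there were 0 in HFD+F+CCl4 and 2 in WD+F+CCl4, beside 860 and 1306 of all 5472 genes. Cxcr6 was at 346 and 315 CPM in control, 275, 224 and 262 CPM in HFD+F+CCl4 and 155, 185 and 200 CPM in WD+F+CCl4 mice, without overlap (-0.35 ± 0.23, adjusted p = 0.502, and -0.76 ± 0.23, adjusted p = 0.0533). Cxcr3 overlapped in all groups, with 135 and 151 CPM in control and 77.2 to 158 CPM in NASH mice. Most control NK cells lay in clusters T13 and T14 and most NASH NK cells in T12.

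B cells, which use Ccr7 and Cxcr4 to enter and stay in lymphoid tissue, had Ccr7 at 177 and 151 CPM in control, 87.9, 59.4 and 58.4 CPM in HFD+F+CCl4 and 74.0, 75.4 and 98.1 CPM in WD+F+CCl4 mice. Every NASH mouse was below both controls (-1.07 ± 0.25, adjusted p = 0.0185, and -0.82 ± 0.22, adjusted p = 0.0233). The calls were lost without HFD+F+CCl4 replicate 2 (-0.87, adjusted p = 0.156) in the first, without WD+F+CCl4 replicate 1 or 2 (-0.73 and -0.79, adjusted p = 0.122 and 0.101) in the second, without control replicate 1 in both (-0.86 and -0.60, adjusted p = 0.223 and 0.31), and after removal of the highest doublet scores (adjusted p = 0.0719 and 0.158), the second also with each cell named by its own scores (adjusted p = 0.069). Cxcr4 fell in WD+F+CCl4, from 118 and 153 CPM to 68.0, 45.6 and 51.8 CPM (-1.04 ± 0.30, adjusted p = 0.0345), a call lost without WD+F+CCl4 replicate 2 or 3 or either control (-1.16 to -0.96, adjusted p from 0.0675 to 0.137). Of the 9 receptors, 6 were called in HFD+F+CCl4 and 7 in WD+F+CCl4, where 6.03% and 11.7% of 9852 genes were called. In HFD+F+CCl4 Cxcr3, Ccr9 and Ccr1 also lost their calls without the highest doublet scores (edgeR adjusted p = 0.692, 0.127 and 0.467). Cxcr3 and Ccr9 lost them at a finer clustering too (0.802 and 0.202), and Cxcr3 and Ccr1 with each cell named by its own scores (0.107 and 0.285). In WD+F+CCl4 Ccr1 lost its call without the highest doublet scores (0.205).

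Most control B cells were in cluster 13 and most NASH B cells in cluster 11, which also held 210 control cells. Within cluster 11 Ccr7 was at 75.9 and 80.9 CPM in the control mice, 77.0, 52.1 and 58.4 CPM in the HFD+F+CCl4 mice and 74.5, 76.1 and 102 CPM in the WD+F+CCl4 mice. The groups overlapped there, so that the lower Ccr7 of NASH B cells was not seen within this cluster. Cxcr4 in cluster 11 was at 118 and 153 CPM in control and 46.7 to 68.4 CPM in WD+F+CCl4 mice, without overlap. Cx3cr1 in all B cells was at 17.9 and 18.3 CPM in control B cells and 104 to 231 CPM in NASH B cells (3.13 ± 0.37, adjusted p = 0.000168, and 3.36 ± 0.36, adjusted p = 2.67e-05). Macrophage markers in B cells summed to 617 and 753 CPM in control and to 898 to 12253 CPM in NASH mice, and patrolling monocyte markers to 509 and 696 CPM and to 693 to 1110 CPM, with all 7 genes of each list detected. The patrolling monocyte sums overlapped between control and NASH mice, while the macrophage sums and Cx3cr1 did not. Within cluster 11 Cx3cr1 was at 74.2 and 18.0 CPM in control and 107 to 232 CPM in NASH mice. The part of these markers in the Cx3cr1 difference was not tested.

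The following pairs lie outside the rule for named pairs and were chosen after their values were seen. Cxcr6 was lower in 3 types that should carry little of it. It was at 116 and 171 CPM in control B cells and 0 to 17.3 CPM in NASH B cells, at 115 and 143 CPM in control plasmacytoid dendritic cells and 0 to 5.00 CPM in NASH ones, and at 84.0 and 66.3 CPM in control cholangiocytes, the cells of the bile ducts, and 0.501 to 3.81 CPM in NASH ones. All 3 were called in both comparisons, and in cholangiocytes the calls were lost without control replicate 2 (-5.54 and -6.08, adjusted p = 0.0598 and 0.0604) and with more than 1000 genes per cell (-5.53 and -6.07, adjusted p = 0.0584 and 0.0597). Within B cell cluster 11 Cxcr6 was at 11.8 and 44.9 CPM in control, on 7 and 5 UMIs, and 0 to 4.20 CPM in NASH mice. B cell cluster 28 held 314 control cells, 2 of HFD+F+CCl4 mice and 51 of WD+F+CCl4 mice. Its Cxcr6 was at 290 to 474 CPM in the 3 mice with a value, so that cluster and group are mixed in the B cell difference. The 6 T cell markers summed to 718 and 1062 CPM in control B cells and to at most 174 CPM in NASH ones, to 664 and 1018 CPM against at most 145 CPM in plasmacytoid dendritic cells, and to 398 and 478 CPM against at most 41.9 CPM in cholangiocytes. Their part in the Cxcr6 differences was not tested. In cholangiocytes 1 of 5 receptors was called in each comparison, where 0.488% and 0.622% of 10458 genes were called. The 32 cholangiocytes of control replicate 2 held 45253 UMIs in all. In cholangiocytes and plasmacytoid dendritic cells Cxcr6 passed the filter on low counts through the control mice alone, so it could be called only as lower there.

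Cx3cr1 was also higher in type 1 dendritic cells, with 4.55 and 17.1 CPM in control and 44.4 to 74.1 CPM in NASH mice (2.70 ± 0.43, adjusted p = 0.00476, and 3.21 ± 0.43, adjusted p = 0.00134), as the 1 receptor called of 5 tested, where 1.49% and 2.93% of 8545 genes were called. The control values rested on 4 and 3 UMIs, and the calls were lost without control replicate 1 (1.56 and 2.07, adjusted p = 0.331 and 0.159) and after removal of the highest doublet scores (1.55 and 2.15, adjusted p = 0.293 and 0.0845). At a finer clustering the direction turned (-0.52 and -0.12, adjusted p = 0.292 and 0.858). Ccr2, the main receptor of these cells, did not pass the test (-0.24 ± 0.25 and 0.15 ± 0.25). In T cells Cx3cr1 was called at 3.47 ± 0.70 and 3.12 ± 0.69, calls lost without either control mouse or HFD+F+CCl4 replicate 2, the first also without HFD+F+CCl4 replicate 3 and the second without WD+F+CCl4 replicate 2 (log2 1.57 to 3.67, adjusted p from 0.062 to 0.677, and log2 1.22 to 3.33, adjusted p from 0.0734 to 0.723). Both were also lost with DESeq2 (2.76 and 2.44, adjusted p = 0.108 and 0.189) and with library size only (3.46 and 2.96, adjusted p = 0.0515 and 0.0629), the first with each cell named by its own scores (2.00, adjusted p = 0.0527) and the second with more than 1000 genes per cell (3.07, adjusted p = 0.0514). Macrophage markers summed to 296 CPM in both controls and 970 to 3049 CPM in NASH mice in type 1 dendritic cells, and to 349 and 565 CPM and 402 to 5351 CPM in T cells, and their part was not tested.

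**Figure D5:**
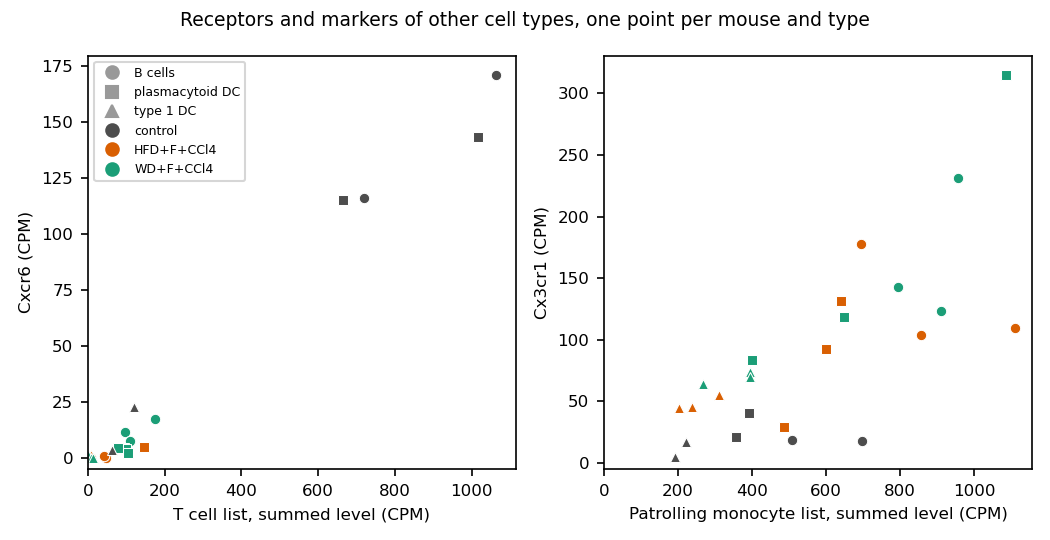
Left, Cxcr6 (CPM) against the summed level of the 6 T cell markers (CPM); right, Cx3cr1 (CPM) against the summed level of the 7 patrolling monocyte markers (CPM); each point is 1 mouse in B cells, plasmacytoid dendritic cells or type 1 dendritic cells. Control B cells and plasmacytoid dendritic cells lie at the upper right of the left panel, with Cxcr6 above 100 CPM and T cell markers above 600 CPM.

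Between the 2 NASH models, edgeR called 0 of the 57 pairs in the 8 types, 13 of which had an unadjusted p under 0.05, while 1 was called by DESeq2. The number of all genes at that unadjusted p ran from 296 of 8494 in cycling T and NK cells to 854 of 11334 in classical monocytes. The shares of all genes called were 0.274% in B cells, 0.0105% in plasmacytoid dendritic cells and 0 in the other 6 types. In 12 types that too few control mice held, fitted with the NASH mice alone, 0 receptors were called and 17 pairs had an unadjusted p under 0.05. Each of these types had 3 to 7 receptors tested. The number of all genes at that unadjusted p ran from 99 of 2039 in regulatory T cells to 1088 of 12114 in patrolling monocytes. The share of all genes called there was 0.119% in hepatocytes, 0.00992% in cycling mononuclear phagocytes and 0 in the other 10. Ccr1 in patrolling monocytes was at 8.54, 9.29 and 7.55 CPM in HFD+F+CCl4 and at 27.5, 25.4 and 17.1 CPM in WD+F+CCl4 mice, higher in the latter by 1.51 ± 0.20 on the log2 scale (unadjusted p = 6.73e-05, adjusted p = 0.178). The same direction was seen in lipid-associated macrophages, with 115, 131 and 96.0 CPM against 45.9, 65.2 and 53.9 CPM (0.97 ± 0.18, adjusted p = 0.648), and in macrophages, with 170, 165 and 158 CPM against 66.3, 105 and 108 CPM (0.83 ± 0.20, adjusted p = 0.555). The models did not overlap in these types, and none of the differences passed the adjustment.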

How the data were processed

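Single-cell RNA-seq (10x Chromium 3' V3) was performed on whole dissociated livers of 8 mice. The counts the authors deposited are whole UMI counts per gene and barcode against GRCm38, made with Cell Ranger after bcl2fastq 2.20. The sources used here name no single Cell Ranger version, and removal of doublets or free RNA is not given in them. The members and gene lists were chosen with earlier results of these data known. Kept barcodes (over 500 genes, mitochondrial share under 25%) were clustered (scanpy 1.11.5, 2000 variable genes, Leiden resolution 1) without chemokine receptor genes and named from 26 fixed marker lists. UMIs were summed per mouse and type with at least 20 cells. CPM is the sum divided by all UMIs of those cells. The sums were tested with edgeR 4.0.16 (quasi-likelihood, TMM, filterByExpr with a minimum count of 10) in R 4.3.3 across all groups, with Benjamini-Hochberg adjustment over all genes of a fit and a threshold of 0.05. The SE after ± on a log2 difference is approximate. It is the size of the difference divided by the square root of edgeR's F statistic. DESeq2 1.42.0 was an alternative. The p-values measure the spread between these mice, with 1 library each. In comparisons with control this spread was estimated over all groups together, of which control gave 2 mice. Doublets were not removed in the main values, and the 8151 cells with the highest doublet scores were left out as an alternative. Receptors were named within a type where their mean reached 50 CPM or the type was among the top 3 for the gene. Some pairs outside this rule were described too. Among them were Ccr7, Ccr9 and Cxcr6 in classical monocytes, Ccr9 in cycling T and NK cells and Ccr1 in patrolling monocytes. Fits with the NASH mice alone in 12 types were added after seeing the data. The tests were first run on simulated data for HFD+F+CCl4 against control, where 200 genes carried a planted log2 change of 2. With all cells summed, edgeR found 27.0% of these genes with 2 false calls, and DESeq2 62.5% with 70. In plasmacytoid dendritic cells edgeR found 93.5% with 15 false calls, and in T cells 80.5% with 21. A gene left uncalled with all cells summed is thus not shown to be unchanged.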

Additional observations from a re-analysis of the deposited data

Results flagged for a closer look

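Cells of the clusters without a name are used in no comparison within a cell type. In them, the lowest NASH mouse had 31.2 CPM of Ccr1, above both control mice (11.9 and 14.0 CPM), and the lowest NASH mouse had 141 CPM of Cx3cr1, above both control mice (40.4 and 63.2 CPM). The unnamed cells of the groups lay in different clusters: clusters 17, 18 and T8 held 2031, 1896 and 705 control cells and 1, 2 and 2 NASH cells, whereas cluster T6 held 8 control cells, 314 of HFD+F+CCl4 mice and 433 of WD+F+CCl4 mice, so that cluster and group cannot be told apart here. These cells were taken up because their signal lies above that of the control mice in data outside the main measurement. No group held 4 or more mice, so single mice were not tested for distance from their group.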

How the results depend on the processing

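The highest type of all 9 receptors was the same under every alternative run. In all cells, 3 to 6 receptors were called in HFD+F+CCl4 against control with each mouse left out in turn (3 without control replicate 1), 5 to 7 in WD+F+CCl4 against control, and 0 between the models. Within cell types the first comparison gave 6 to 18 calls with a mouse left out (6 without control replicate 1, 8 without HFD+F+CCl4 replicate 2, 9 without control replicate 2), 25 with no filter beyond 1 count and 9 without the highest doublet scores. The second gave 10 to 24 with a mouse left out (10 without control replicate 1) and 31 with no filter. Between the models there were 0 to 4 with a mouse left out (4 without WD+F+CCl4 replicate 3), 11 with no filter, and 1 each with DESeq2, with more than 1000 genes per cell and with each cell named by its own scores. Cx3cr1 in type 1 dendritic cells reversed at a resolution of 2, to -0.52 and -0.12. The cause of these changes was not tested, beyond the fewer samples or cells that an alternative holds.

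Replicate numbers did not pair the mice: the correlation of deviations was between -0.65 and 0.09 over pairs of groups. With the replicate block, 1 pair was called between the models within cell types, and these calls were lost: in all cells Ccr2 in WD+F+CCl4 (1.31) and Ccr7 and Ccr9 in HFD+F+CCl4 (-2.44 and -3.56), Cxcr4 in B cells in WD+F+CCl4 (-0.98), Ccr7 in T cells in HFD+F+CCl4 (-1.58) and Ccr7 in plasmacytoid dendritic cells in HFD+F+CCl4. Only 2 control mice carry every comparison with control, and control replicate 2 was the shallowest library.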
